A study of Mus musculus with 8 samples.

Results

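The semaphorins, their plexin and neuropilin receptors, the ephrins and the Eph receptors form large families of cell guidance molecules. All genes with a symbol beginning in Sema, Plxn, Efna or Efnb, the numbered Epha and Ephb genes, and Nrp1 and Nrp2 were followed in hair follicle cells that had lost the BMP receptor gene Bmpr1a. The symbols gave 53 genes, of which 20 are semaphorins, 11 are plexins or neuropilins, 5 are ephrins-A, 3 are ephrins-B and 14 are Eph receptors. They stand among 22431 symbols in the table of bulge stem cells and in that of Shh-CreER transit-amplifying cells, and among 33365 in the table of K15-CrePGR transit-amplifying cells. A gene was compared in a table where its mean was at least 1 FPKM (fragments normalized for transcript length and for the size of the library), which kept 34 members of 12205 genes in the bulge, 36 of 12296 in Shh-CreER cells and 34 of 13565 in K15-CrePGR cells.

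The RNA of 8 libraries from mice of mixed strain was compared in 3 pairs of genotypes. Bulge stem cells, the resting stem cells of the hair follicle, came from a K15-CrePGR;Bmpr1a cKO and from a K15-CrePGR;Bmpr1a Het sample, both at day 68 (label p68), with 1 library each. Transit-amplifying cells (TACs), the dividing progenitors of the hair bulb, came from a Shh-CreER;Bmpr1a cKO and a Shh-CreER;Bmpr1a Het sample at the same age, again with 1 library each. A further set of TACs came from hair bulbs of K15-CrePGR mice at day 80, with KO samples 64 and 84 and WT samples 52 and 57. The deleted mice carry Bmpr1a fl/fl, per the design text, and the labels do not say whether the WT samples carry the Cre. K15-CrePGR is a progestin-inducible Cre under a Krt15 promoter, which is active in bulge stem cells, so the K15-CrePGR bulb cells descend from stem cells in which the gene was to be deleted. Shh-CreER is a tamoxifen-inducible Cre at the Shh gene, which is active in part of the hair matrix, so a bulb sample can also hold cells in which the Cre was never active. Nothing in the labels says how many mice a library pools or that samples 52, 57, 64 and 84 are separate animals.

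In guidance signalling, secreted class 3 semaphorins bind neuropilins, which signal together with plexins of class A or D, while the membrane-bound classes bind plexins directly. Ephrins are ligands held on the membrane, by a lipid anchor in ephrins-A and by a transmembrane segment in ephrins-B, and they activate Eph receptor kinases on the neighbouring cell. Contact through ephrin and Eph proteins sorts cells and keeps tissue compartments apart, and in skin these families also act on nerve and vessel growth and on keratinocyte adhesion.

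Of the 37 members compared in at least 2 of the 3 tables, 5 differed at least 2-fold in the same direction in at least 2 (Sema5a, Nrp2, Sema3c, Ephb4 and Sema6a), as did 3.08% of all genes so compared. Sema6a counts through a bulge value that passed the filter in the cKO library alone, and without it they are 4. The bases just upstream of 3 of them are shown because their values went the same way (Sema6a is not shown, and the window of Sema3c overlaps its annotated exons). A difference is given throughout as log2(FPKM + 1) in deleted minus control, and 2-fold means a difference of at least 1 on that scale. Upstream sequences were taken from RefSeq for GRCm38.p6, which is not the mm9 build of the expression tables, and 47 of the 53 genes were found there, with 61 start sites. The 250 bases before each start were searched on both strands for GGCGCC (its own reverse complement) and CAGAC (or GTCTG), letters bound by Smad proteins, and for CTTTGA (or TCAAAG), the core bound by TCF and LEF proteins. The motifs do not overlap each other in what is printed. Bases that lie in an exon of the same gene were left out, and matches are in capitals. Ephb4 lies at chr5:137349859-137350108 (plus strand), Nrp2 at chr1:62703067-62703284 (plus strand) and Sema5a at chr15:32244563-32244812 (plus strand). Efnb2, at chr8:8661243-8661492 (minus strand), was added after its values were seen, as the ligand of Ephb4 that was lower where Ephb4 was higher.
Sema5a: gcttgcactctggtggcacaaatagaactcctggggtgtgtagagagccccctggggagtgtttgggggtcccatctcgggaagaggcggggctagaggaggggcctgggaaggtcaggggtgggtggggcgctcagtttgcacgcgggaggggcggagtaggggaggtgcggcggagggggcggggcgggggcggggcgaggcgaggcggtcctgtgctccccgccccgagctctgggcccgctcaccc
Nrp2: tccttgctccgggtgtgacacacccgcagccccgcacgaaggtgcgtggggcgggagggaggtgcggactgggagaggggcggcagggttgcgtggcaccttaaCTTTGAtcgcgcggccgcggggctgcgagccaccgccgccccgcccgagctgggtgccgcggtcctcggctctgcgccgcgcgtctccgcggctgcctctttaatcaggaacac
Ephb4: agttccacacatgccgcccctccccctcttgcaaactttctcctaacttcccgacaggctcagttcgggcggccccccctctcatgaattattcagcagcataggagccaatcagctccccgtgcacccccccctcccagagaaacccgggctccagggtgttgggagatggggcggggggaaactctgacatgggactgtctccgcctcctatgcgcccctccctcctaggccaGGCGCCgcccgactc
Efnb2: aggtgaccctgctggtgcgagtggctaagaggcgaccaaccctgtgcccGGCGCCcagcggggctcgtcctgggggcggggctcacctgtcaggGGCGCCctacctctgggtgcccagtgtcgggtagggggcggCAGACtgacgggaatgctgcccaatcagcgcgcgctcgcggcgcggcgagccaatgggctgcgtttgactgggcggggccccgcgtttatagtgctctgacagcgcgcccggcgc
Ephb4 holds 1 GGCGCC, which begins 15 bases before the start. Nrp2 holds 1 CTTTGA, at 146 bases before it. Efnb2 holds GGCGCC at 201 and 156 bases and CAGAC at 115 bases before its start, and in Sema5a none of the 3 motifs was found. These letters are common: GGCGCC is present in 9.59% of all 32851 windows and in 13 of the 61 member windows, CAGAC in 42.2% and in 30, and CTTTGA in 13.8% and in 3. The member windows are also richer in G and C, with a median of 64.4% against 52.4% over all windows. A match describes the letters only and is neither a binding site nor a cause of any value below.

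Across the series, a few facts touch every value. Bmpr1a itself was at 39.3 FPKM in cKO and 31.8 FPKM in Het bulge cells, at 40.5 FPKM in cKO and 46.0 FPKM in Het Shh-CreER cells, and at 39.9 and 38.0 FPKM in KO against 42.2 and 37.1 FPKM in WT K15-CrePGR cells (limma adjusted p = 0.948). A level over the whole gene does not check the removal of a part of it, so the genotype labels are not checked by it. Xist, the RNA of the inactive X in females, differed between libraries of a comparison: it was at 3.98 FPKM in cKO and 68.9 FPKM in Het bulge cells, and in the K15-CrePGR table it was at 3.27 FPKM in WT 52 and between 175 and 227 FPKM in the other 3 samples. Summed markers of bulge cells reached 3679 FPKM in cKO and 9094 FPKM in Het bulge cells, and those of hair matrix TACs 1139 FPKM in cKO and 5611 FPKM in Het Shh-CreER cells. These sums follow their most abundant keratins, but other markers differed too. In the bulge the median over the 8 bulge markers was -0.13, with Krt15, Cd34 and Krt24 lower and Sox9 higher in cKO. In Shh-CreER cells the median over the 9 matrix markers was -1.175. There Krt35, Krt85, Hoxc13, Msx2 and Dlx3 were at least 2-fold lower in cKO and Lef1 was lower by less. Shh, Mki67 and Top2a were higher by less than 2-fold. In the K15-CrePGR table matrix markers summed to 1171 and 955 FPKM in KO and to 3129 and 2550 FPKM in WT. Krt35 alone was at 733 and 624 FPKM in KO and 2519 and 2028 FPKM in WT. Shh went the other way, at 50.5 and 72.8 FPKM in KO and 19.55 and 19.8 FPKM in WT (1.58), and the other matrix markers had negative differences. The median over the 7 matrix markers tested there was -0.78. Bulge markers summed to 503 and 626 FPKM in KO and to 129 and 180 FPKM in WT. Markers of isthmus and sebaceous cells summed to 974 FPKM in cKO and 199 FPKM in Het Shh-CreER cells and to 360 and 904 FPKM in KO and 96.6 and 91.8 FPKM in WT K15-CrePGR cells. The part of such shifts in the guidance genes was not tested, and in bulk RNA fewer cells of a type and less RNA per cell cannot be told apart. No normalization across the 3 tables is stated, so a level is set against another table only as a description.

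The control samples show where each gene was expressed to begin with. Of the 39 members that passed the filter in at least 1 table, 11 had a level in Het bulge cells at least 2-fold above that in Het Shh-CreER TACs and 11 a level as far below it, while 17.9% and 26.2% of all 13240 genes compared did so. On the bulge side stood Ephb6, a kinase-dead Eph receptor, with 150 FPKM in bulge Het and 3.31 FPKM in Shh-CreER Het, and the secreted semaphorins Sema3e (44.4 and 0.621 FPKM), Sema3d (19.9 and 0.409 FPKM) and Sema3c (63.7 and 5.24 FPKM). The ephrins Efna3 (139 and 31.5 FPKM), Efna5 (17.9 and 1.93 FPKM), Efnb2 (93.9 and 35.5 FPKM) and Efna1 (145.5 and 66.6 FPKM) were also higher in the bulge, as were Plxna2 (34.5 and 9.34 FPKM), Ephb3 (19.0 and 8.66 FPKM) and Sema3f (21.8 and 10.2 FPKM).

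On the side of the bulb stood the neuropilins, with Nrp2 at 1.08 FPKM in bulge Het and 38.0 FPKM in Shh-CreER Het and Nrp1 at 1.33 and 10.3 FPKM. Efnb1, an X-linked ligand of the EphB receptors, was at 42.0 FPKM in bulge Het and 173 FPKM in Shh-CreER Het, and Epha2, a receptor of ephrins-A in keratinocytes, at 41.2 and 125 FPKM. The membrane-bound semaphorins Sema4c (4.11 and 35.4 FPKM), Sema4d (1.44 and 8.45 FPKM) and Sema6a (0.926 and 6.20 FPKM) followed the same order. The remaining members of that side were Sema3b, Plxnd1, Efna2 and Sema7a. Controls of the K15-CrePGR table were close to those of Shh-CreER for Nrp2 (32.2 and 35.9 FPKM in WT 52 and WT 57), Efnb1 (157 and 142 FPKM) and Epha2 (97.9 and 79.5 FPKM), and lay above them for Ephb6 (13.8 and 6.45 FPKM) and Efna5 (8.81 and 8.95 FPKM). With 1 bulge and 1 Shh-CreER control, no replicate stands behind these differences.

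**Figure D1:**
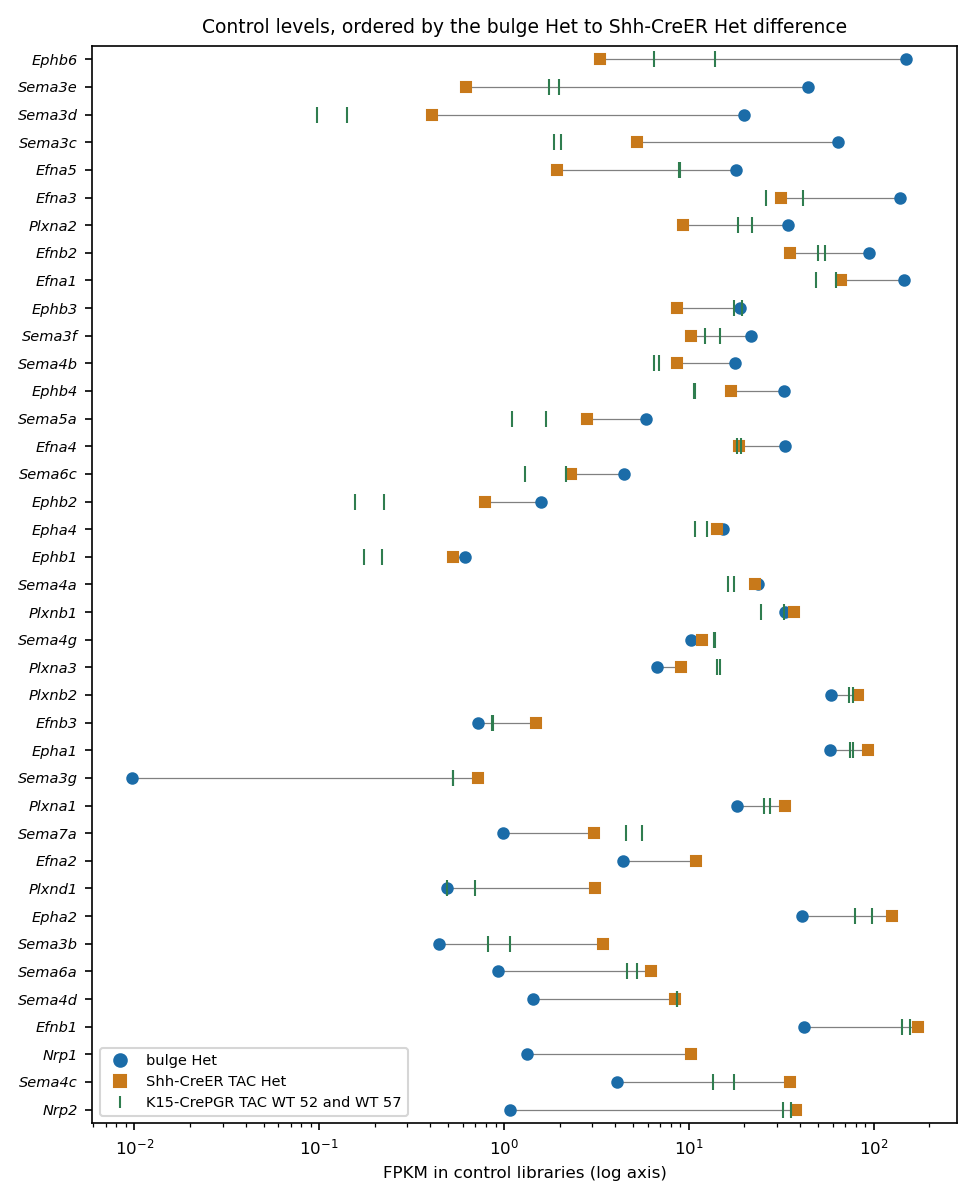
FPKM on a log axis in the control libraries for the 39 members that passed the filter, with a circle for bulge Het, a square for Shh-CreER TAC Het and green ticks for WT 52 and WT 57 of K15-CrePGR TACs. Ephb6, Sema3e, Sema3d and Sema3c stand highest in the bulge relative to the bulb, and Nrp2, Sema4c, Nrp1 and Efnb1 lowest, by the log2(FPKM + 1) difference that orders the rows. Efna2 and Nrp1 have no ticks because the K15-CrePGR table lists them only in joined loci.

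In bulge stem cells most members were close to their control level in the cKO library. Of 34 members, 24 differed by less than 1.5-fold, a count that was not made over all genes. The median difference was 0.10, against 0.05 over all genes. In cKO 4 members were at least 2-fold higher, while 5.92% of all genes were, and 1 was at least 2-fold lower, while 4.6% of all genes were. With 1 library per genotype no test was possible, and these counts describe the 2 libraries, which also differed in Xist as given above.

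The lower member was Plxna2, a plexin that pairs with neuropilins and binds class 6 semaphorins, at 6.91 FPKM in cKO and 34.5 FPKM in Het (difference -2.17). The other plexins of the bulge differed by less: Plxnb2, the most abundant, was at 42.4 FPKM in cKO and 58.5 FPKM in Het, Plxnb1 at 29.4 and 33.0 FPKM, Plxna1 at 24.8 and 18.3 FPKM and Plxna3 at 7.27 and 6.76 FPKM. Plxna2 thus made up most of the drop in the summed plexin and neuropilin level, which was 116 FPKM in cKO and 154 FPKM in Het. Nrp2, the neuropilin that binds Sema3c and Sema3f, was the opposite case, with 3.75 FPKM in cKO and 1.08 FPKM in Het (difference 1.19), while Nrp1 was at 1.69 and 1.33 FPKM.

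Among the ligands, Sema5a, a membrane semaphorin with thrombospondin repeats that binds plexins, was at 14.9 FPKM in cKO and 5.85 FPKM in Het (difference 1.21). Sema6a, which binds class A plexins, was at 5.59 FPKM in cKO and 0.926 FPKM in Het (difference 1.77). The most abundant semaphorin of the bulge, Sema3c, was at 42.1 FPKM in cKO and 63.7 FPKM in Het, and Sema3d and Sema3e were lower by less, with 16.3 and 33.1 FPKM in cKO against 19.9 and 44.4 FPKM in Het. Sema4c was at 8.77 FPKM in cKO and 4.11 FPKM in Het, just short of 2-fold on the log2(FPKM + 1) scale. The semaphorins past 2-fold were thus Sema5a and Sema6a, and the abundant secreted ones differed by less than 2-fold. Sema6a was under 1 FPKM in Het, so its cKO level alone brought it into the comparison. With 5 added to FPKM in place of 1, Sema5a was at 0.87 and Sema6a at 0.84, both short of 2-fold. A link between level and difference can therefore not be read from these genes.

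Ephrin ligands showed no 2-fold difference in the bulge. Efna1, the most abundant of all members there, was at 173 FPKM in cKO and 145.5 FPKM in Het, and Efnb2 was at 92.4 and 93.9 FPKM. The largest difference among them was that of Efna3, at 72.5 FPKM in cKO and 139 FPKM in Het (-0.93). Of the receptors, Ephb1 was at 5.13 FPKM in cKO and 0.617 FPKM in Het (difference 1.92), Ephb3 at 34.6 and 19.0 FPKM (0.83) and Epha4 at 26.4 and 15.4 FPKM (0.74). The abundant receptors Ephb6 (123 and 150 FPKM in cKO and Het) and Epha1 (62.8 and 58.2 FPKM) were nearly level.

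Ephb1 and Sema6a passed the filter in the bulge only through the cKO library, so a difference was bound to show in them. The members nearest the filter were Ephb2 (mean 1.32 FPKM) and Nrp1 (1.51 FPKM) inside it, and Sema3b (0.781 FPKM) and Efnb3 (0.777 FPKM) outside it. The added 1 in log2(FPKM + 1) weighs on genes of low level: with 5 in its place, Ephb1, Nrp2, Sema5a and Sema6a were no longer 2-fold apart, and Plxna2 was (-1.73). Endothelial markers, which class 3 semaphorins and ephrins-B are often studied with, summed to 0.723 FPKM in cKO and 0.363 FPKM in Het, and all 8 lay under the filter. Smooth muscle markers summed to 48.1 FPKM in cKO and 3.28 FPKM in Het. Acta2 (23.2 and 0.691 FPKM) and Tagln (23.2 and 1.72 FPKM) made up most of this. Cnn1 was at 1.64 and 0.772 FPKM, and Myh11 (0.0892 and 0.0490 FPKM) and Des (0 and 0.0502 FPKM) were near 0. Immune markers summed to 122 FPKM in cKO and 303 FPKM in Het, and cornified markers to 2870 FPKM in cKO and 6972 FPKM in Het. Hair matrix markers summed to 102 FPKM in cKO and 43.8 FPKM in Het, though Dlx3 and Msx2 were lower in cKO. The part of all these markers in the differences was not tested.

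In Shh-CreER TACs more members differed, and in both directions. In cKO 6 of 36 were at least 2-fold higher, while 2.67% of all genes were, and 4 were at least 2-fold lower, while 2.77% of all genes were. The median over members was 0.13, against 0.01 over all genes. By less than 1.5-fold differed 20 members, a count that was not made over all genes. The table holds 1 library per genotype, so no test was possible here either.

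In cKO 4 of the 13 semaphorins were higher by 2-fold or more and 2 were lower by as much. The secreted Sema3b was at 13.1 FPKM in cKO and 3.45 FPKM in Het (difference 1.67), and Sema3c at 13.5 and 5.24 FPKM (1.22). Sema3f, a secreted ligand of Nrp2, went the other way, with 3.97 FPKM in cKO and 10.2 FPKM in Het (-1.17). Class 3 members of the same table thus differed in opposite directions, although Sema3b and Sema3f are neighbours on chromosome 9.

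Among the membrane-bound ones, Sema6a was at 18.5 FPKM in cKO and 6.20 FPKM in Het (difference 1.44) and Sema5a at 8.06 and 2.82 FPKM (1.25). In class 4, Sema4g was at 3.81 FPKM in cKO and 11.8 FPKM in Het (-1.41) and Sema4a at 11.2 and 22.7 FPKM (-0.96), while Sema4b (0.09) and Sema4d (-0.23) differed little. Sema4c, the most abundant semaphorin of these cells and a ligand of Plxnb2, was nearly level at 38.4 FPKM in cKO and 35.4 FPKM in Het. The summed level of the 13 semaphorins was 137 FPKM in cKO and 121 FPKM in Het, so the class as a whole differed little.

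Nrp2 was the only receptor of the semaphorins past 2-fold in Shh-CreER cells, with 79.7 FPKM in cKO and 38.0 FPKM in Het (difference 1.05). Plexins stayed close: Plxnb2 was at 78.7 FPKM in cKO and 82.4 FPKM in Het, Plxnb1 at 40.7 and 37.0 FPKM, and Plxna1 at 40.6 and 33.3 FPKM. Plxna2, the member furthest apart in the bulge, was at 6.59 FPKM in cKO and 9.34 FPKM in Het (-0.45).

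The ephrin and Eph genes gave the lowest and some of the highest differences of Shh-CreER cells. Epha1, an Eph receptor of epithelia, was at 25.0 FPKM in cKO and 93.7 FPKM in Het (difference -1.87). Efnb2, the transmembrane ligand of Ephb4, was at 12.7 FPKM in cKO and 35.5 FPKM in Het (-1.42), while Ephb4 was at 42.9 and 17.0 FPKM (1.29). Ligand and receptor of this pair thus differed in opposite directions in the same libraries.

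The other B receptors were higher in cKO by less than 2-fold on this scale, with Ephb3 at 17.5 FPKM in cKO and 8.66 FPKM in Het (0.93) and Ephb6 at 6.52 and 3.31 FPKM (0.80). The abundant Efnb1 (154 FPKM in cKO and 173 FPKM in Het), Epha2 (134 and 125 FPKM) and Efna1 (49.9 and 66.6 FPKM) differed by less than 1.5-fold. With 5 added in place of 1, Nrp2 (0.98), Sema3c (0.86), Sema3f (-0.76), Sema4g (-0.93) and Sema5a (0.74) fell short of 2-fold, and Ephb4, Sema3b, Sema6a, Efnb2 and Epha1 did not. The skeletal muscle markers summed to 31.4 FPKM in cKO and 154 FPKM in Het, melanocyte markers to 25.3 FPKM and 95.6 FPKM (of which Dct alone was 15.8 FPKM and 82.9 FPKM), and endothelial markers to 44.0 FPKM and 26.0 FPKM, and their part in these differences was not tested.

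**Figure D2:**
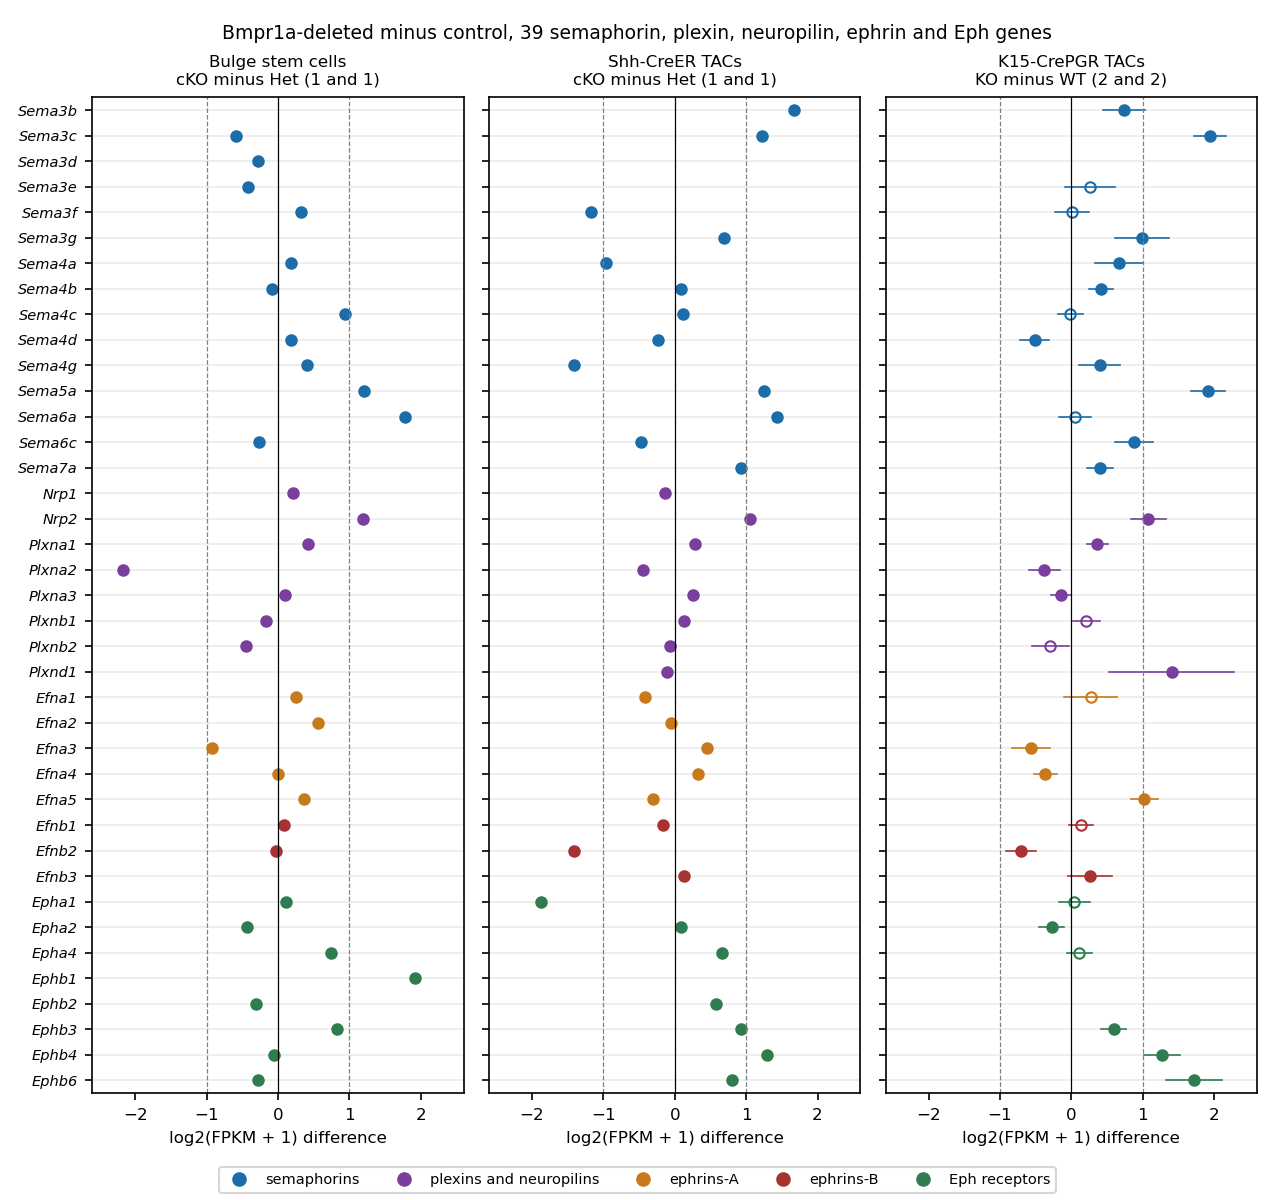
Difference in log2(FPKM + 1), cKO minus Het or KO minus WT, of the 39 members that passed the filter in at least 1 table, with 1 point per gene in each table where it passed, dashed lines at 2-fold and, for K15-CrePGR TACs, bars of 1 standard error from limma and open points where KO and WT samples overlap. Sema5a and Nrp2 lie beyond the upper dashed line in all 3 panels, Sema3c and Ephb4 in both TAC panels, Plxna2 is far below in the bulge, and Epha1 is lowest in Shh-CreER TACs and near 0 in K15-CrePGR TACs.

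K15-CrePGR TACs are the only cells with replicates. There 0 of 34 members passed limma at an adjusted p under 0.05, a threshold that 0.0663% of all genes (9 of 13565) passed. At an unadjusted p under 0.05 limma gave 8 members higher in KO, while 10.3% of all genes were, and 1 member lower, while 7.08% of all genes were. Both KO values lay above both WT values in 17 members, while they did so in 26.8% of all genes. Of these 17, 4 (Plxnd1, Sema3g, Sema3b and Efnb3) passed the filter only through the KO samples, with a WT mean under 1 FPKM. Both KO values lay below in 7, while they did so in 27.5% of all genes. A 2-fold difference without overlap was held by 7 members on the higher side, with 8.94% of all genes, and by 0 members on the lower side, with 1.89% of all genes. The 7 members were 4 with a pseudocount of 5 and 10 with one of 0.1. The median over members was 0.27, against -0.03 over all genes. Several members below differed by far between the genotypes, yet none passed the test with 2 samples each.

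The lowest p among the members was that of Sema3c (chromosome 5, 17080074 to 17236131 in mm9). It was at 12.2 and 8.83 FPKM in KO 64 and KO 84 and at 2.04 and 1.87 FPKM in WT 52 and WT 57. Both KO samples were well above both WT samples, by 1.94 ± 0.22 (SE, limma adjusted p = 0.0866). In the bulge, where Sema3c is abundant, the cKO library was the lower one.

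Sema5a (chromosome 15, 32174568 to 32626096 in mm9) followed, at 7.26 and 8.78 FPKM in KO and 1.11 and 1.69 FPKM in WT. The groups were far apart, with a difference of 1.92 ± 0.24 (SE, limma adjusted p = 0.0918). Sema6c, a transmembrane semaphorin of low level, was at 4.32 and 3.63 FPKM in KO and 2.16 and 1.30 FPKM in WT (0.88 ± 0.27, SE, limma adjusted p = 0.240). Sema4a, the most abundant semaphorin of these bulbs, was at 37.8 and 19.7 FPKM in KO and at 17.6 and 16.3 FPKM in WT (0.66 ± 0.34, SE, limma adjusted p = 0.378), so that KO 64 stood far above and KO 84 just above the WT samples. Of the 14 semaphorins, 12 had a positive difference, as did 47.3% of all genes, and their summed level was 146 and 122 FPKM in KO against 97.2 and 89.9 FPKM in WT.

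Nrp2 (chromosome 1, 62749803 to 62865269 in mm9) was at 59.3 and 89.5 FPKM in KO and at 32.2 and 35.9 FPKM in WT. KO samples were above WT samples without overlap, by 1.08 ± 0.24 (SE, limma adjusted p = 0.173). Among the plexins, Plxnd1 differed by more but rests on KO 64, as given below. The abundant Plxnb2 was at 77.8 and 48.7 FPKM in KO and 73.7 and 77.7 FPKM in WT, with overlap, and Plxna2 was at 18.0 and 12.9 FPKM in KO and 18.4 and 22.1 FPKM in WT (-0.38, limma adjusted p = 0.418). Nrp1 and Efna2 are listed in this table only in loci joined with another gene and were not counted as members there. The locus of Nrp1 and Mir1903 was at 11.0 and 2.02 FPKM in KO and 4.21 and 2.80 FPKM in WT, and that of Efna2 and 1600002K03Rik at 17.6 and 19.95 FPKM in KO and 24.9 and 28.8 FPKM in WT (limma adjusted p = 0.771 and 0.252).

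Ephb4 (chromosome 5, 137791337 to 137918292 in mm9), the receptor of ephrin-B2, was at 21.6 and 34.5 FPKM in KO and 10.6 and 10.8 FPKM in WT (1.27 ± 0.26, SE, limma adjusted p = 0.151). Efnb2 itself (chromosome 8, 8617349 to 8661239 in mm9) was at 37.4 and 26.5 FPKM in KO and 54.4 and 50.0 FPKM in WT (-0.71 ± 0.21, SE, limma adjusted p = 0.238). Receptor and ligand did not overlap between genotypes and lay on opposite sides, as in Shh-CreER cells, but neither passed the test. Efnb1, the most abundant member of this table, was at 177 and 152 FPKM in KO and 157 and 142 FPKM in WT, with overlap.

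Ephb6 (chromosome 6, 41555481 to 41570508 in mm9) was at 28.8 and 39.2 FPKM in KO and at 13.8 and 6.45 FPKM in WT (1.72 ± 0.39, SE, limma adjusted p = 0.172). Ephb3 was at 25.3 and 31.6 FPKM in KO and 17.5 and 19.3 FPKM in WT (0.59 ± 0.17, SE, limma adjusted p = 0.232). The 3 tested B receptors of these bulbs therefore had both KO values above both WT values, as had 26.8% of all genes. A receptors did not: Epha1 was at 65.9 and 93.4 FPKM in KO and 77.7 and 74.7 FPKM in WT (0.04), and Epha2 at 68.7 and 76.9 FPKM in KO and 97.9 and 79.5 FPKM in WT (-0.28, limma adjusted p = 0.459). Epha4 was at 11.45 and 14.0 FPKM in KO and 12.5 and 10.8 FPKM in WT (0.11).

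The ephrins-A split. Efna5 (chromosome 17, 62952318 to 63232421 in mm9) was at 16.5 and 22.1 FPKM in KO and 8.81 and 8.95 FPKM in WT (1.02 ± 0.19, SE, limma adjusted p = 0.139). Efna3 was at 20.4 and 23.5 FPKM in KO and 41.4 and 26.2 FPKM in WT (-0.57), and Efna4 at 13.2 and 15.7 FPKM in KO and 19.3 and 18.3 FPKM in WT (-0.36). Efna1, the most abundant, was at 47.8 and 93.1 FPKM in KO and 62.4 and 48.9 FPKM in WT, so the groups overlapped. Efna1, Efna3 and Efna4 are neighbours on chromosome 3, with 32.8 and 10.4 kb between them in mm9, and their differences were 0.27, -0.57 and -0.36.

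**Figure D3:**
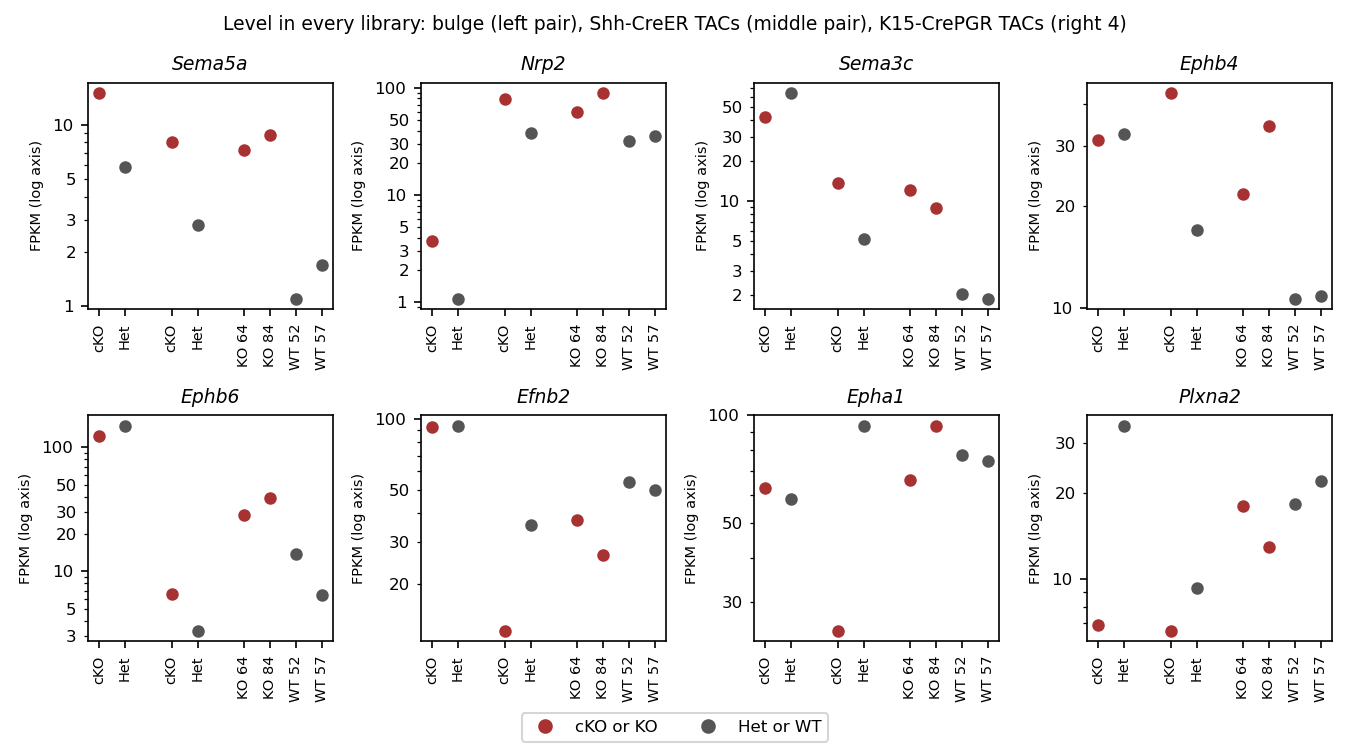
FPKM on a log axis of 8 members in each of the 8 libraries, with cKO and KO in red and Het and WT in grey, for bulge cells (left pair), Shh-CreER TACs (middle pair) and K15-CrePGR TACs (4 points on the right). Sema5a and Nrp2 are higher in each deleted library than in its controls, Sema3c, Ephb4 and Ephb6 in the TAC tables and not in the bulge, Efnb2 is lower in both TAC tables and level in the bulge at 92.4 and 93.9 FPKM, and each panel has its own scale.

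Sample KO 64 stood apart from KO 84 in several members. Plxnd1, a plexin of endothelial cells and the receptor of Sema3e, was at 8.90 and 0.798 FPKM in KO 64 and KO 84 and at 0.699 and 0.491 FPKM in WT. It passed the filter only through KO 64, and its difference of 1.41 had a standard error of 0.87 (limma adjusted p = 0.448). Sema3g, an endothelial semaphorin, was at 2.91 and 1.34 FPKM in KO and 0.528 and 0.531 FPKM in WT, and Sema3d at 2.16 and 0.304 FPKM in KO and 0.142 and 0.0978 FPKM in WT. Of the 38 members with at least 1 FPKM in KO 64, 5 (these 3, Plxnc1 and Sema6d) had at least 2 times the FPKM of every other sample there, with no value added, and so did 10.2% of all genes at that level. Of these 5 members, 2 passed the filter.

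Markers of other cells moved with KO 64. The 8 endothelial markers summed to 42.3 and 5.63 FPKM in KO 64 and KO 84 and to 4.90 and 1.86 FPKM in WT, none of them at 0. Those of fibroblasts and dermal papilla summed to 1476 and 455 FPKM in KO and 403 and 426 FPKM in WT, those of immune cells to 278 and 52.4 FPKM in KO and at most 26.5 FPKM in WT, and those of melanocytes to 121 and 39.6 FPKM in KO and 27.7 and 25.6 FPKM in WT. The part of these cells in the members' values was not tested. Sema3c, Sema4a and Sema6c were higher in KO 64 than in KO 84, as these sums were, and Sema5a, Nrp2, Ephb4, Ephb6, Efna5 and Ephb3 were higher in KO 84. Without KO 64 the member median was 0.26 and the smallest limma adjusted p among members was 0.133, and without KO 84 they were 0.34 and 0.0695. Without WT 52 or WT 57 limma called 0 of all genes, with a smallest adjusted p among members of 0.614 and 0.652, and 6 and 7 members at an unadjusted p under 0.05.

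**Figure D4:**
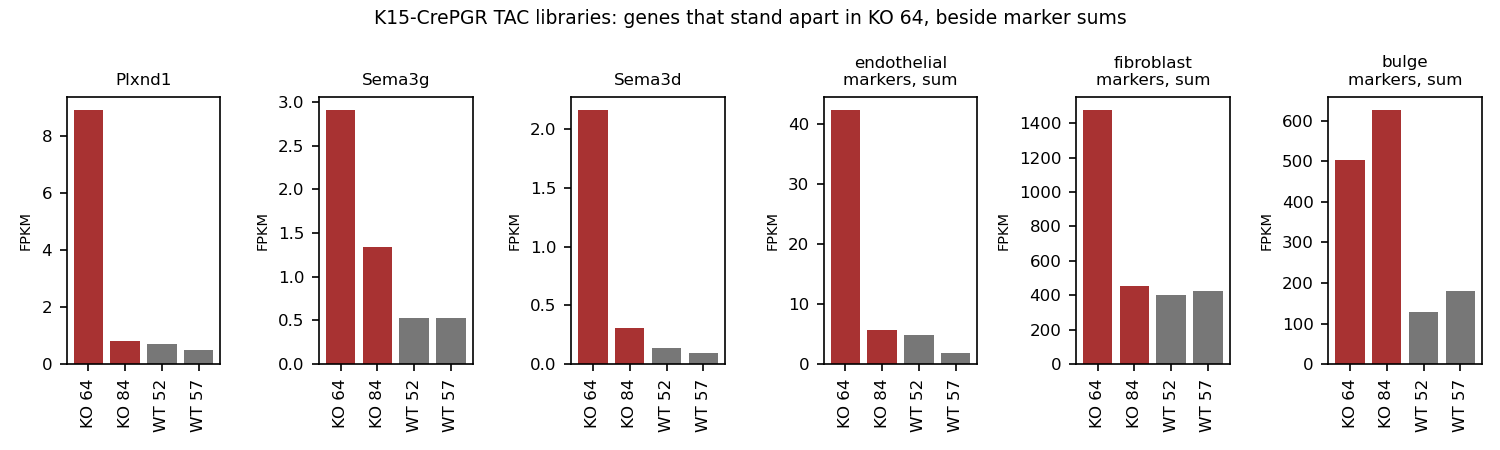
FPKM per sample of K15-CrePGR TACs (KO in red, WT in grey, axes from 0) for Plxnd1, Sema3g and Sema3d and for the summed markers of endothelial cells, of fibroblasts with dermal papilla and of bulge cells. KO 64 is highest in the first 5 panels, with 8.90 FPKM of Plxnd1 and an endothelial sum of 42.3 FPKM, while bulge markers are high in both KO samples, at 503 and 626 FPKM.

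The members were also read by the compartment that their control level belongs to. Of the 10 tested members that were at least 2-fold higher in bulge Het than in Shh-CreER Het, 4 lay above and 3 below WT without overlap in K15-CrePGR KO bulbs, with a median of 0.27. Over all 1589 genes of that kind the median was 0.45, with 55.4% above and 13.8% below. Of the 9 members that were at least 2-fold lower in bulge Het, 4 lay above and 2 below, with a median of 0.14, against -0.19 with 17.5% above and 43.4% below over all 3036 such genes. Of the 15 members less than 2-fold apart, 9 lay above and 2 below (median 0.36), against 0.02 with 28.3% above and 21.5% below over 6270 genes. Efnb3 and Sema3g among these 9, and Plxnd1 and Sema3b on the bulb side, passed the filter only through the KO samples and were bound to lie higher. Over all genes above WT without overlap, 18.9% had a WT mean under 1 FPKM. Sema5a and Ephb4 are among these 15, Sema3c, Ephb6, Efna5 and Efnb2 are bulge-side genes, and Nrp2 is a bulb-side gene.

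Set side by side, the 3 tables gave 28 members that could be read in each. Of these, 6 were higher in the deleted libraries of all 3, 3 were lower in all 3 and 19 were mixed, while 16.7% and 12.8% of the 10007 genes read in every table were higher and lower throughout. Of the 3 lower ones (Plxna2, Plxnb2 and Efnb2), Efnb2 had a difference of only -0.02 in the bulge, and Plxnb2 one of -0.06 in Shh-CreER cells, which was 0.03 with quantile normalization. Sema5a and Nrp2 were at least 2-fold higher in every table, with differences of 1.21, 1.25 and 1.92 for Sema5a and 1.19, 1.05 and 1.08 for Nrp2 in bulge, Shh-CreER and K15-CrePGR cells, and 0.41% of all genes were. In K15-CrePGR cells Nrp2 was 0.78 without KO 84 and 0.998 with a pseudocount of 5, short of 2-fold. With that pseudocount both genes were also short of 2-fold in the other tables. Sema5a was then at 0.87 in bulge and 0.74 in Shh-CreER cells, and Nrp2 at 0.52 and 0.98. The level at which Sema5a and Nrp2 were higher was unlike: Nrp2 reached 3.75 FPKM in bulge cKO and 79.7 FPKM in Shh-CreER cKO, and Sema5a 14.9 and 8.06 FPKM. Sema3c and Ephb4 were at least 2-fold higher in both TAC tables and not in the bulge, where their differences were -0.59 and -0.06, and the difference between tables was not tested. Sema6a was at least 2-fold higher in bulge and Shh-CreER cells, while in K15-CrePGR bulbs it was at 4.27 and 6.15 FPKM in KO and 4.62 and 5.25 FPKM in WT (0.05). Epha1, Sema3f and Sema4g, which were 2-fold lower in Shh-CreER cKO, had differences of 0.04, 0.01 and 0.40 in K15-CrePGR bulbs. No member (0 of the 37 compared in at least 2 tables) was at least 2-fold apart in opposite directions in a pair of tables. The share of all genes that were so was not counted.

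Members under the filter complete the families: 19 in bulge cells, 17 in Shh-CreER cells and 17 in K15-CrePGR cells. There were 14 that stayed below it throughout, namely Epha3, Epha5, Epha6, Epha7, Epha8 and Epha10, Plxna4, Plxnb3 and Plxnc1, and Sema3a, Sema4f, Sema5b, Sema6b and Sema6d. The highest mean among these 14 was that of Sema6d in Shh-CreER cells, at 0.954 FPKM, next to Ephb2 just inside the filter there at 1.22 FPKM. The A receptors of these follicle cells were therefore Epha1, Epha2 and Epha4, with the other 6 of 9 below the filter. In K15-CrePGR cells the members nearest the filter were Efnb3 (1.06 FPKM) inside and Ephb2 (0.706 FPKM) outside.

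Downstream genes were read from a list of 49 intracellular effectors of plexins and Eph receptors, of which 44 were tested in each table. In bulge cells 6 were at least 2-fold higher in cKO and 1 lower, next to 5.92% and 4.6% of all genes. Farp1, a Rac exchange factor that acts with plexins in neurons, was at 41.9 FPKM in cKO and 12.5 FPKM in Het, and Ngef, an exchange factor bound by EphA receptors, at 1.71 and 20.9 FPKM (difference -3.02). Acp1, a small phosphatase of Eph receptors, was at 21.4 FPKM in cKO and 9.91 FPKM in Het. In Shh-CreER cells 1 effector, the exchange factor Kalrn, was 2-fold higher (3.47 FPKM in cKO and 1.18 FPKM in Het, named after its values were seen) and 0 were 2-fold lower, next to 2.67% and 2.77% of all genes.

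In K15-CrePGR bulbs 0 of the 44 effectors passed limma after adjustment and 14 had an unadjusted p under 0.05, in either direction, next to those same shares of 10.3% and 7.08%. Without overlap and at least 2-fold apart, 6 were higher and 1 was lower in KO, next to 8.94% and 1.89% of all genes. Of the 6, Fes passed the filter only through the KO samples (8.06 and 3.78 FPKM in KO, 1.13 and 0.580 FPKM in WT). Fyn, a Src family kinase of plexin-A and ephrin signalling, was at 18.3 and 20.7 FPKM in KO and 6.66 and 7.61 FPKM in WT (1.33, limma adjusted p = 0.0881). Rras, the GTPase that plexins switch off, was at 25.3 and 27.0 FPKM in KO and 10.8 and 11.4 FPKM in WT (1.17, limma adjusted p = 0.0881), and Farp1 at 28.7 and 43.1 FPKM in KO and 14.7 and 16.8 FPKM in WT (1.11, limma adjusted p = 0.168). Vav3, an exchange factor bound by Eph receptors, was the lower one, at 30.1 and 16.8 FPKM in KO and 57.3 and 51.3 FPKM in WT (-1.23, limma adjusted p = 0.197). Farp1 was thus on the higher side in the bulge and in K15-CrePGR bulbs, and nearly level in Shh-CreER cells at 19.3 FPKM in cKO and 19.0 FPKM in Het. Kalrn, again named after its values were seen, was at least 2-fold higher in all 3 tables, as were 0.41% of all genes. It was at 5.78 FPKM in cKO and 1.28 FPKM in Het bulge cells (1.57). In K15-CrePGR bulbs it was at 3.89 and 4.54 FPKM in KO and 1.965 and 0.810 FPKM in WT (1.17, limma adjusted p = 0.220).

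The other guidance families (slits and Robo receptors, netrins and their receptors, Flrt and RGM proteins) were read from a list of 26 genes, of which 11, 12 and 14 were tested in bulge, Shh-CreER and K15-CrePGR cells. In the bulge 4 were at least 2-fold higher in cKO and 0 lower, next to 5.92% and 4.6% of all genes. They were the netrin Ntn4 (34.3 FPKM in cKO and 8.03 FPKM in Het), Flrt3 (127 and 32.9 FPKM), Rgma (45.5 and 20.5 FPKM) and the slit receptor Robo2 (7.21 and 2.95 FPKM). In Shh-CreER cells, next to 2.67% and 2.77% of all genes, 2 were higher and 1 was lower, the netrin receptor Unc5b, at 39.6 FPKM in cKO and 98.8 FPKM in Het. In K15-CrePGR bulbs 0 passed limma after adjustment, 6 had an unadjusted p under 0.05 (over all genes 10.3% did on the higher and 7.08% on the lower side), and 4 were higher in KO and 0 lower without overlap and at least 2-fold apart, next to 8.94% and 1.89% of all genes. Of these 4, Ntng1 and Robo2 passed the filter only through the KO samples, so they were bound to lie higher. Ntng1, named after its values were seen, was at 7.73 and 1.87 FPKM in KO and 0 FPKM in both WT samples. The slit ligand Slit3, also among the 4, was at 13.2 and 3.98 FPKM in KO and 2.04 and 2.01 FPKM in WT, with KO 64 the highest.

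Rgma, a membrane protein that is both a ligand of neogenin and a BMP co-receptor, was at 16.1 and 15.5 FPKM in KO and 5.16 and 4.04 FPKM in WT (1.59, limma adjusted p = 0.0866). It was also at 5.10 FPKM in cKO and 2.04 FPKM in Het Shh-CreER cells, and with Robo2, which was at 4.67 and 1.11 FPKM there, it was the higher pair of that table (both named there after their values were seen). In K15-CrePGR bulbs Robo2 was at 2.64 and 2.37 FPKM in KO and 0.790 and 0.238 FPKM in WT (1.23, limma adjusted p = 0.208). Robo2 passed the filter there only through the KO samples. Rgma was therefore at least 2-fold higher in all 3 tables, though only just in Shh-CreER cells (1.004), and so was Robo2 with that limit. Of all genes, 0.41% were.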

How the data were processed

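RNA of 8 mouse libraries in 3 tables was used. The submitters' processing notes name TopHat, Cufflinks and build mm9 without versions. The values as deposited by the authors are FPKM, with a column for each library, and tables were not compared by test, since a common normalization is not stated. Sequencing depth is unknown. From the steps of low values, the relative depth was 0.854 for cKO to Het in bulge cells, 1.003 in Shh-CreER cells, and 1.078 (KO 64), 0.911 (KO 84) and 1.135 (WT 57) relative to WT 52. Loci without a name, 8904 of them in the K15-CrePGR table, held 78.4% to 79.0% of the FPKM and were left out.

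Here the row with the highest mean was kept per symbol, and loci that join several genes were not members. From the deposited FPKM, log2(FPKM + 1) was computed, which understates differences of low genes, and a table's genes were kept from a mean FPKM of 1 upward. K15-CrePGR samples were tested with limma 3.58.1 (R 4.3.3, two-sided, empirical Bayes, trend on intensity) over all 13565 named loci kept, at an adjusted p (Benjamini-Hochberg) of 0.05. The fit was tested on simulated data. With 1 library per genotype no test was run in the other tables. P-values measure only the spread between samples 52, 57, 64 and 84. Between KO 64 and KO 84 that spread may be technical. WT 52 and WT 57 differed in Xist and Ddx3y, so they are not repeats of the same animal. Values per library were given for members at least 2-fold apart, for the 8 of lowest p and for the most abundant of each class, and for up to 4 genes of each other list and table. The members and lists were chosen with earlier results of these data known. Alternatives were pseudocounts of 0.1 and 5, filters, scalings, the sum of rows per symbol, no intensity trend and each sample left out.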

Additional observations from a re-analysis of the deposited data

How the results depend on the processing

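Under every alternative run, 0 members passed limma in K15-CrePGR cells, with a smallest adjusted p between 0.0679 and 0.652. The calls over all genes there (9) were 21 with a pseudocount of 0.1, 5 without a filter, 15 with a filter of 5 FPKM, and 0 to 23 with a sample left out (0 without WT 52 or WT 57, 13 without KO 64, 23 without KO 84). The member median (0.27) was 0.36 with a pseudocount of 0.1, 0.14 with a filter of 5 FPKM and 0.26 to 0.34 with a sample left out. In bulge cells the 5 members 2-fold apart were 1 with a pseudocount of 5 and 2 with a filter of 5 FPKM, and the 1284 genes were 580 and 854, while the member median (0.10) was 0.005 without a filter and 0.05 with median ratio scaling. In Shh-CreER cells the 10 members were 5 with a pseudocount of 5, the 668 genes were 292 with it and 427 with a filter of 5 FPKM, and the member median (0.13) was 0.015 without a filter. The cause of these moves was not tested, beyond the fewer genes that a filter leaves and the weight that a pseudocount has on low values. The values of named genes' differences under the alternatives numbered 473. Of the 158 that belong to a difference of at least 2-fold, 15 fell under 2-fold, and 13 of the 473 changed sign, all of differences of at most 0.29. Leaving out KO 84 gave 0.78 for Nrp2, 0.94 for Ephb4 and 0.82 for Efna5 in K15-CrePGR cells. No paired analysis was possible because KO and WT samples share no numbers. Depth limits the genes under 1 FPKM most, and with 1 library per genotype the bulge and Shh-CreER values have no error.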
